A study of Mus musculus with 6 samples.

Results

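The 8 genes described here belong to the Notch pathway: the receptors Notch1 and Notch2, the DNA-binding factor Rbpj, the coactivators Maml1, Maml2 and Maml3, the regulator Dtx1 and the target gene Hes1. Their chromatin was read by ATAC-seq: a transposase cuts accessible DNA and attaches sequencing adapters there, so that a peak of reads marks an open stretch. A peak was given to one of these genes when that gene's body was the protein-coding body nearest to the peak's summit, with the summit inside it or within 100 kb. By that rule 1257 of the 573921 peaks in the 6 libraries belonged to the 8 genes (0.219%). Merging peaks that overlapped by at least 1 bp gave 306 regions of the 8 genes among 134174 regions in all (0.228%). The regions were chosen by the summit positions in the 6 peak lists, so the number of regions per gene is a description. The farthest summit inside the limit lay 87560 bp from Hes1, in Res-ctrl replicate 3, with a pileup of 9. The nearest one left out lay 103789 bp from Rbpj, in Res-shFabp7 replicate 2, with a pileup of 11, and 61 peaks beyond the limit had one of the 8 genes as their nearest gene.

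The libraries came from mouse CD8+ T cells, taken from spleen by negative selection and cultured for 48 hours in a transwell, with tumour cells behind a porous membrane. In the Res-shFabp7 group (3 libraries) the tumour was a PD-1-resistant lung adenocarcinoma, in which a short hairpin RNA targeted Fabp7, a fatty acid binding protein. In the Res-ctrl group (3 libraries) it was the control form of the same tumour. All T cells had been activated with 5 µg/mL of anti-CD3 and 1 µg/mL of anti-CD28 antibody, so both groups are activated T cells facing a tumour, and neither T cells without tumour cells nor resting T cells were analysed here. The knockdown lay in the tumour cells, and T cell chromatin holds no check of it. The labels call the libraries biological replicates without naming separate animals or cultures, so p-values measure the spread between these libraries.

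Notch receptors are cut within the membrane once they bind a ligand on a neighbouring cell, and the released intracellular part moves to the nucleus. There it joins RBPJ, which binds DNA whether or not Notch is active, and a Mastermind-like (MAML) protein, which brings in histone acetyltransferases. Without the Notch part, RBPJ is bound by corepressors. In the T lineage the pathway is known for commitment of thymic progenitors, and in activated CD8+ T cells it is known for a role in effector differentiation. ATAC-seq measures none of these steps: it shows which stretches of these genes' DNA were accessible.

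The peak lists held 104575, 105796 and 100243 peaks in the Res-shFabp7 libraries, against 84844, 82153 and 96310 in the Res-ctrl libraries. The most common background pileup, a measure of depth, was 1.026, 0.868 and 0.959 in Res-shFabp7, against 0.709, 0.608 and 1.006 in Res-ctrl. Res-ctrl replicate 3 stood apart from the other 2 control libraries and was as deep as the Res-shFabp7 libraries. The value without it is therefore given where leaving it out makes or ends a call, though not for every such region. All 12 CD8 T cell marker genes had a region open in all 6 libraries, as did all 3 CD4 markers, 5 of 7 B cell markers, 5 of 7 myeloid markers and 2 of 6 epithelial markers. Ms4a1 of the B cell list and Krt8 and Sftpc of the epithelial list had no region at all. B cell markers together held 0.217 to 0.268 peaks per 1000 peaks of a Res-shFabp7 list, against 0.183 to 0.208 of a Res-ctrl list. The epithelial list held 0.170 to 0.180 in Res-shFabp7, against 0.125 to 0.158 in Res-ctrl, and the myeloid list 0.277 to 0.350 in Res-shFabp7, against 0.270 to 0.304 in Res-ctrl. The CD8 T cell list held 2.798 to 3.033 in Res-shFabp7, against 2.982 to 3.112 in Res-ctrl. The CD4 list held 0.227 to 0.249 in Res-shFabp7, against 0.268 to 0.291 in Res-ctrl. The groups thus did not overlap for B cell and epithelial markers, which were higher in Res-shFabp7, nor for CD4 markers, which were lower, and the part of other cells in the results below was not tested. In a bulk library, more cells with an open region and more open DNA per cell cannot be told apart.

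The next sequences are 4 stretches of DNA before annotated transcription starts, chosen for the match to the core of the RBPJ site and for the height of the region there. Each is 250 bases, from RefSeq on GRCm38.p6, written 5′ to 3′ on the gene's strand, and capitals mark TGGGAA or its reverse complement TTCCCA. The first lies before the first of the 2 annotated Rbpj starts (plus strand, chr5:53590096-53590345), with 2 matches inside a region open in all 6 libraries. The next lies before Maml3 (minus strand, chr3:52105007-52105256), with 1 match outside the open region. The third lies before the second annotated start of Maml2 (plus strand, chr9:13662210-13662459), with 1 match and no open region. The last lies before Maml1 (minus strand, chr11:50292337-50292586), with no match, in the tallest start region of the 8 genes.
Rbpj: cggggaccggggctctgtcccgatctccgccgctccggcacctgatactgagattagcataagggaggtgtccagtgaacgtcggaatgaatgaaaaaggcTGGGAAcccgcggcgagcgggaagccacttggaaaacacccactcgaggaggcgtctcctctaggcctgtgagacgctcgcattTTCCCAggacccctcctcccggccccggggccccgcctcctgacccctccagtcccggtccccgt
Maml3: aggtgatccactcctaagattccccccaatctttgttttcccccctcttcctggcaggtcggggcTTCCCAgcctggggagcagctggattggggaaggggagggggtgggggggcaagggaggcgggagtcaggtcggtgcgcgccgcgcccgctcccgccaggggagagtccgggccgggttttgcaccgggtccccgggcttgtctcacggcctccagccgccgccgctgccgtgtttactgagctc
Maml2: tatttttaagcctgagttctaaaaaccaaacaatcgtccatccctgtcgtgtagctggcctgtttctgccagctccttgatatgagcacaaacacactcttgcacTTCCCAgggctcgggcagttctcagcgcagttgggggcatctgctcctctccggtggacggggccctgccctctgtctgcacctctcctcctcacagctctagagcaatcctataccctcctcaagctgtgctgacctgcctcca
Maml1: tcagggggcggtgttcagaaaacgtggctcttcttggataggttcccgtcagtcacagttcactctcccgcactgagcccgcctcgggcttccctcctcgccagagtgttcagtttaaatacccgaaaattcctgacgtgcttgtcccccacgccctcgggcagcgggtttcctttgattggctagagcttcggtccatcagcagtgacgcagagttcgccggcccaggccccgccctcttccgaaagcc
The matches lay 149 and 65 bases before the Rbpj start, 185 before Maml3 and 145 before Maml2. The window of the second Rbpj start overlaps the first one and shares 1 of its matches, which there lies 205 bases before the start. The 9 annotated start windows belong to 7 of the genes, Hes1 not included, and 4 of the 9 held TGGGAA on either strand, where 21.6% of 32851 mouse start windows did. The ETS motif CCGGAAGT, the RUNX motif TGTGGT and the AP-1 motif TGANTCA, searched on both strands, had no match in the 9 windows and were found in 2.88%, 14% and 6.75% of all windows. Such a match is a description of the letters, not of a bound site. Of the 9 windows, 8 overlapped a region open in all 6 libraries, against 36.7% of all windows.

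Together the 8 genes had 228, 238 and 219 peaks in the Res-shFabp7 libraries, against 185, 173 and 214 in the Res-ctrl libraries. Every Res-shFabp7 library held more than any Res-ctrl library, with means of 228.3 ± 9.50 and 190.7 ± 21.1 (SD, n = 3 each) and a difference of 19.76%. A two-sided exact permutation test gave p = 0.1, and no smaller p can be reached with 3 libraries on each side. The whole lists differed by 17.97% in the same direction, and the comparison was therefore repeated per 1000 peaks of each list. The 8 genes held 2.18, 2.25 and 2.19 peaks per 1000 in Res-shFabp7, against 2.18, 2.11 and 2.22 in Res-ctrl. These ranges overlapped, and the means of 2.21 ± 0.0388 and 2.17 ± 0.0589 differed by 1.63% (exact permutation p = 0.5, SD, n = 3 each). In lists shortened to the same number of strongest peaks, the difference in peaks of the 8 genes was 2.0 per library (exact permutation p = 0.6).

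**Figure D1:**
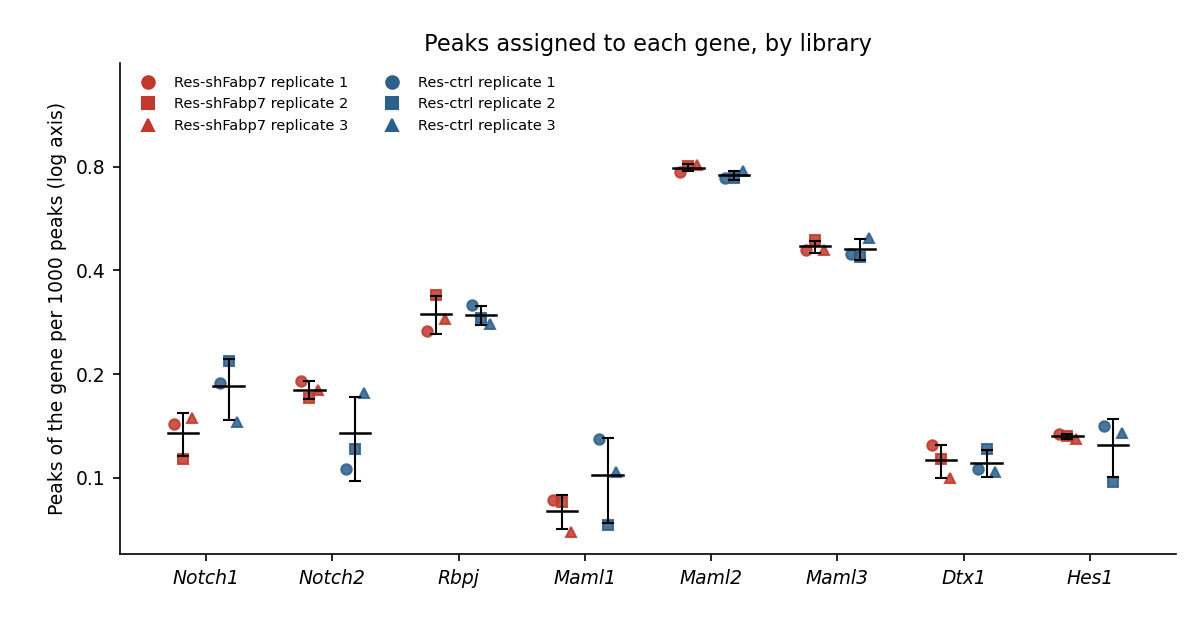
Peaks of each gene per 1000 peaks of the library's list (log axis), for 3 Res-shFabp7 libraries (red) and 3 Res-ctrl libraries (blue); symbols mark the replicate, and bars the mean ± SD. Maml2 held 0.795 per 1000 on average in Res-shFabp7 and 0.755 in Res-ctrl, the most of the 8 genes, and on this scale no gene's 2 groups were fully apart.

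No single gene passed the test of its share of peaks. On log2 peaks per 1000, 0 of the 8 genes had an adjusted p under 0.05 (limma with Benjamini-Hochberg adjustment over 5706 genes), where 37 of all genes tested did (0.648%), and 2 of the 8 had an unadjusted p under 0.05, as did 16.8% of all genes tested. In raw peaks, Notch2, Rbpj and Maml2 had more peaks in every Res-shFabp7 library than in any Res-ctrl library, as did 18.5% of all genes tested. Per 1000 peaks, 0 of the 8 were apart in either direction, while 8.24% of all genes were apart with Res-shFabp7 higher and 13.4% with Res-shFabp7 lower.

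Of the receptors, Notch1 lies at chr2:26457902-26503822 and gave 15, 12 and 15 peaks in Res-shFabp7, against 16, 18 and 14 in Res-ctrl. Its counts overlapped, with the most peaks in 2 of the 3 control libraries. Notch2, at chr3:98013538-98150367, gave 20, 18 and 18 peaks in Res-shFabp7, against 9, 10 and 17 in Res-ctrl. Here each Res-shFabp7 library held more than each Res-ctrl library, but Res-ctrl replicate 3 came within 1 peak of them. The log2 differences in peaks per 1000 pointed opposite ways, at -0.43 for Notch1 (SE 0.15, limma adjusted p = 0.1739) and 0.43 for Notch2 (SE 0.15, limma adjusted p = 0.1773). Neither passed the threshold, and the difference between the receptors was not tested. Without Res-ctrl replicate 3, Notch2 was called, at 0.63 (limma adjusted p = 0.02467).

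Both receptor genes were open at their starts in every library. The region at the Notch1 start (chr2:26503659-26504182) had pileups, the number of fragments stacked at the summit, of 131, 146 and 131 in Res-shFabp7, against 120, 95 and 163 in Res-ctrl. The Notch2 start (chr3:98013090-98014174) had 122, 104 and 115 in Res-shFabp7, against 97, 89 and 135 in Res-ctrl. At both starts the raw ranges overlapped and Res-ctrl replicate 3 was the highest library. After normalisation the Notch2 start was lower in every Res-shFabp7 library than in any Res-ctrl library. On quantile-normalised log2 pileup, the height scale used from here on, the differences were -0.08 for Notch1 (SE 0.11, limma adjusted p = 0.7468) and -0.13 for Notch2 (SE 0.12, limma adjusted p = 0.6047). These were also the tallest common regions of the 2 genes, each of which had 8 regions open in all 6 libraries, of 21 regions at Notch1 and 23 at Notch2. Inside Notch2, the region chr3:98085839-98086079 had the largest positive height difference of all 117 common regions of the 8 genes. Its pileups were 31, 28 and 23 in Res-shFabp7, against 11, 7 and 24 in Res-ctrl. The 2 shallower control libraries were low and Res-ctrl replicate 3 lay within the Res-shFabp7 range, and the difference of 0.75 did not pass the test (SE 0.27, limma adjusted p = 0.0962). Without Res-ctrl replicate 3 it was called, at 1.03 (limma adjusted p = 0.02705), and against that library as the single control it was 0.18.

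Rbpj, the DNA-binding partner of the Notch intracellular part, lies at chr5:53555779-53657445. It gave 28, 36 and 29 peaks in Res-shFabp7, against 27, 24 and 27 in Res-ctrl. Although every Res-shFabp7 count was higher, the share of the list was the same in both groups, with a log2 difference of 0.00 (SE 0.1, limma adjusted p = 0.9975). Its 45 regions included 18 open in all 6 libraries, and 21 of the 45 lay inside the gene body. Of the 18 common regions 13 were higher in Res-shFabp7, with a median height difference of 0.13. The tallest of them was not at the start but 64724 bp outside the body (chr5:53490532-53491188). It had pileups of 279, 284 and 281 in Res-shFabp7, against 158, 157 and 273 in Res-ctrl. Every Res-shFabp7 library was higher, with Res-ctrl replicate 3 close behind and the other 2 control libraries far below. Its height rose 1.29-fold in Res-shFabp7, a log2 difference of 0.37 (SE 0.08, limma adjusted p = 0.005008). With the authors' fold over local background in place of pileup it was -0.07 (limma adjusted p = 0.7126), so that the direction turned, and with median centring it was 0.24 (limma adjusted p = 0.09205). The call was lost without Res-shFabp7 replicate 2 (0.33, limma adjusted p = 0.05734) and without Res-ctrl replicate 1 (0.28, limma adjusted p = 0.07224). Closer to the gene, the region chr5:53540030-53540592 had pileups of 37, 24 and 28 in Res-shFabp7, against 13, 11 and 17 in Res-ctrl. These groups did not overlap, but the difference of 0.72 did not pass (limma adjusted p = 0.0883), while with median centring it was 0.79 and passed (limma adjusted p = 0.04834). The region over the Rbpj starts, whose sequence is printed above, had 86, 63 and 83 in Res-shFabp7, against 62, 47 and 65 in Res-ctrl, with ranges that overlapped and a difference of 0.14 (SE 0.16, limma adjusted p = 0.663).

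The coactivators differed from each other most in how many open regions they held. Maml2 had 105 regions, Maml3 had 62 and Maml1 had 15. Maml1 spans 37498 bp, while Maml2 and Maml3 span 412973 and 418000 bp, and 104 of the 105 Maml2 regions and 58 of the 62 Maml3 regions lay inside the gene. Regions open in all 6 libraries numbered 43 at Maml2, 25 at Maml3 and 3 at Maml1, which put Maml2 at rank 11, Maml3 at rank 124 and Maml1 at rank 4768 among the 21887 protein-coding genes. Per 100 kb of gene body, Maml2 held 10.2 and Maml3 5.74 such regions, where the median of 557 genes of at least 300 kb was 0.186. Among those long genes Maml2 ranked 5 and Maml3 ranked 28. In the shorter members the density was 15.2 per 100 kb at Notch1, 4.39 at Notch2, 11.8 at Rbpj, 8.0 at Maml1, 15.8 at Dtx1 and 41.0 at Hes1, where it rests on 1 region. These were not set against other genes of their length.

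**Figure D2:**
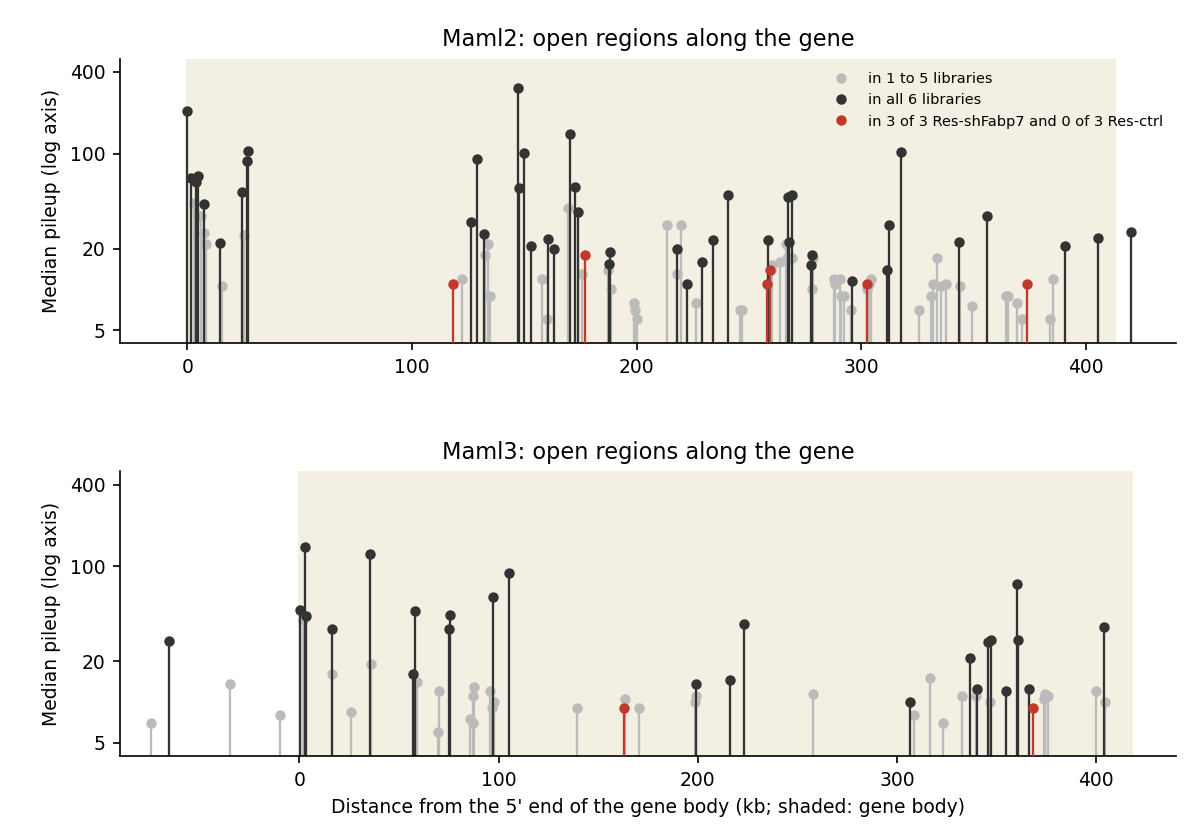
Open regions along Maml2 (top) and Maml3 (bottom): distance from the 5′ end of the gene body in kb (shaded: gene body) against the median pileup over the libraries that held the region (log axis). Grey marks regions in 1 to 5 libraries, black those in all 6, and red those in all 3 Res-shFabp7 and no Res-ctrl library; the tallest Maml2 region stands 145720 bp from its first annotated start, and the 8 red regions are low.

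Maml1, at chr11:50255634-50293131, gave 9, 9 and 7 peaks in Res-shFabp7, against 11, 6 and 10 in Res-ctrl. The counts overlapped, with a log2 difference in peaks per 1000 of -0.31 (SE 0.18, limma adjusted p = 0.3875). Its start region (chr11:50291850-50292875) was among the tallest of the 8 genes and lay between the 96.8 and 97.7 percentile of the 56610 common regions in every library. The pileups there were 286, 304 and 316 in Res-shFabp7, against 233, 215 and 344 in Res-ctrl. The groups overlapped at nearly the same height, with a difference of 0.03 (SE 0.07, limma adjusted p = 0.8904). A low region inside the gene (chr11:50286445-50286819) had the largest negative difference of the 117 common regions. It had pileups of 16, 20 and 29 in Res-shFabp7, against 29, 22 and 29 in Res-ctrl. The raw ranges overlapped, and the difference of -0.74 did not pass (limma adjusted p = 0.07575). Without Res-ctrl replicate 3 it was called, at -0.87 (limma adjusted p = 0.04997).

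Maml2, at chr9:13296561-13709533, gave 81, 85 and 81 peaks in Res-shFabp7, against 63, 61 and 75 in Res-ctrl. All Res-shFabp7 libraries were above all Res-ctrl libraries, but per 1000 peaks the groups overlapped and the log2 difference was 0.07 (SE 0.05, limma adjusted p = 0.4996). Its tallest region lay deep inside the gene (chr9:13443498-13443858), 145720 bp from the first annotated start, and stood at the 95.8 to 98.2 percentile of the common regions. There the pileups were 346, 313 and 300 in Res-shFabp7, against 210, 209 and 336 in Res-ctrl. Res-ctrl replicate 3 lay within the Res-shFabp7 range, and the difference of 0.18 did not pass (limma adjusted p = 0.1567). By comparison, the region at that start (chr9:13297907-13298416) was lower, with 89, 56 and 75 in Res-shFabp7 and 58, 55 and 82 in Res-ctrl, ranges that overlapped. A taller region covered the 5′ end of the gene body (chr9:13296272-13296779), at the 88.9 to 93.7 percentile. It had 217, 198 and 221 in Res-shFabp7, against 156, 116 and 228 in Res-ctrl, and a difference of 0.19 (limma adjusted p = 0.2482). The second annotated start, whose window is printed above, had no region in any library.

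Within Maml2, 23 of the 43 common regions were higher in Res-shFabp7 and the median difference was 0.03. By the height test 2 of the 43 were called, both higher in Res-shFabp7. Of all common regions, 3.13% were called higher and 1.4% lower in Res-shFabp7. At chr9:13651961-13652488 the pileups were 68, 39 and 55 in Res-shFabp7, against 26, 22 and 31 in Res-ctrl. At chr9:13565721-13565988 they were 73, 59 and 66 in Res-shFabp7, against 33, 35 and 40 in Res-ctrl. In both, every Res-shFabp7 library was above every Res-ctrl library, Res-ctrl replicate 3 included. The first rose 1.6-fold, by a log2 difference of 0.68 (SE 0.21, limma adjusted p = 0.04187), and the second 1.49-fold, by 0.57 (SE 0.18, limma adjusted p = 0.04787). Both adjusted p-values lay close to the threshold, and each call held in 1 of the 6 fits that left out a library: the first without Res-shFabp7 replicate 2, the second without Res-ctrl replicate 2. The highest limma adjusted p among these fits was 0.2848 for the first and 0.2025 for the second. Without Res-ctrl replicate 3 the differences were 0.59 (limma adjusted p = 0.1008) and 0.45 (limma adjusted p = 0.1512). On the authors' fold they were 0.38 (limma adjusted p = 0.2849) and 0.16 (limma adjusted p = 0.7489), and after merging across 200 bp neither passed (limma adjusted p = 0.05081 and 0.0586). With median centring they were 0.68 (limma adjusted p = 0.0316) and 0.54 (limma adjusted p = 0.04958), and both passed.

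Maml3, at chr3:51687320-52105319, gave 48, 52 and 46 peaks in Res-shFabp7, against 38, 36 and 48 in Res-ctrl. Res-ctrl replicate 3 matched the Res-shFabp7 libraries, and the log2 difference per 1000 peaks was 0.02 (SE 0.07, limma adjusted p = 0.9018). Its tallest common region (chr3:52101963-52103388) had pileups of 154, 138 and 149 in Res-shFabp7, against 116, 113 and 139 in Res-ctrl. Res-ctrl replicate 3 lay just inside the Res-shFabp7 range, and the difference was 0.05 (limma adjusted p = 0.8661). The region at the annotated start (chr3:52104924-52105117) had 47, 44 and 48 in Res-shFabp7, against 50, 31 and 68 in Res-ctrl. That was the largest difference of the start regions, at -0.35 (SE 0.18, limma adjusted p = 0.2911), with the control libraries on both sides of the Res-shFabp7 range. The region chr3:51750187-51750634, with a difference of -0.59 and pileups of 15, 6 and 12 in Res-shFabp7 and 12, 10 and 14 in Res-ctrl, overlapped between the groups in raw pileup and did not pass (limma adjusted p = 0.2685). None of the 25 common Maml3 regions passed the height test in either direction, and 14 were higher in Res-shFabp7.

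Dtx1 encodes a Deltex family E3 ubiquitin ligase that binds the intracellular part of Notch. It lies at chr5:120680203-120711867 and gave 13, 12 and 10 peaks in Res-shFabp7, against 9, 10 and 10 in Res-ctrl. The groups met at 10 peaks, and the log2 difference per 1000 was 0.01 (SE 0.14, limma adjusted p = 0.9819). The tallest common region lay in the part of the gene away from its start (chr5:120685696-120686218). It had pileups of 109, 105 and 127 in Res-shFabp7, against 72, 69 and 116 in Res-ctrl, and a difference of 0.20 (SE 0.13, limma adjusted p = 0.4078). In raw pileup 2 control libraries were low and Res-ctrl replicate 3 was not; after normalisation every Res-shFabp7 library was above every Res-ctrl library. The start region (chr5:120711338-120712033) had 80, 75 and 78 in Res-shFabp7, against 66, 50 and 97 in Res-ctrl, with the Res-shFabp7 values between those of the control libraries and a difference of -0.08 (limma adjusted p = 0.8064). Of the 6 common Dtx1 regions 2 were higher in Res-shFabp7, with a median difference of -0.17. The lowest was chr5:120688503-120688714, at -0.61 (SE 0.23, limma adjusted p = 0.1164), where the pileups were 26, 27 and 23 in Res-shFabp7, against 23, 27 and 41 in Res-ctrl. The raw ranges overlapped there, and after normalisation every Res-shFabp7 library was below every Res-ctrl library.

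Hes1 encodes a basic helix-loop-helix repressor and is a direct target of the RBPJ and Notch complex in many tissues. The gene is short (chr16:30065357-30067796), and only 2 of its 17 regions lay inside it. It gave 14, 14 and 13 peaks in Res-shFabp7, against 12, 8 and 13 in Res-ctrl, which met at 13 peaks, with a log2 difference per 1000 of 0.09 (SE 0.14, limma adjusted p = 0.8017). Its 6 common regions had the highest median height difference of the 8 genes, 0.35, with 4 of 6 higher in Res-shFabp7. The tallest of them (chr16:30024658-30025195), whose summit lay 40223 bp outside the body, had pileups of 85, 83 and 73 in Res-shFabp7, against 46, 33 and 63 in Res-ctrl. Every Res-shFabp7 library was above every control library. It rose 1.44-fold, by a log2 difference of 0.53 (SE 0.16, limma adjusted p = 0.04118), and the call held without Res-ctrl replicate 3 and was lost when any of the other 5 libraries was left out (limma adjusted p from 0.05654 to 0.1652). On the authors' fold the difference was 0.22 (limma adjusted p = 0.3455) and with median centring 0.48 (limma adjusted p = 0.05406), neither past the threshold. The region inside Hes1 (chr16:30066844-30067248) had 59, 43 and 43 in Res-shFabp7, against 26, 18 and 31 in Res-ctrl. These groups did not overlap either, and the difference of 0.62 did not pass (limma adjusted p = 0.07302). The common region farthest out on the low-coordinate side (chr16:30008537-30009336) had 32, 25 and 31 in Res-shFabp7, against 14, 8 and 27 in Res-ctrl, with Res-ctrl replicate 3 inside the Res-shFabp7 range and a difference of 0.61 (limma adjusted p = 0.1717). The other 3 common regions differed by 0.16, -0.05 and -0.12.

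**Figure D3:**
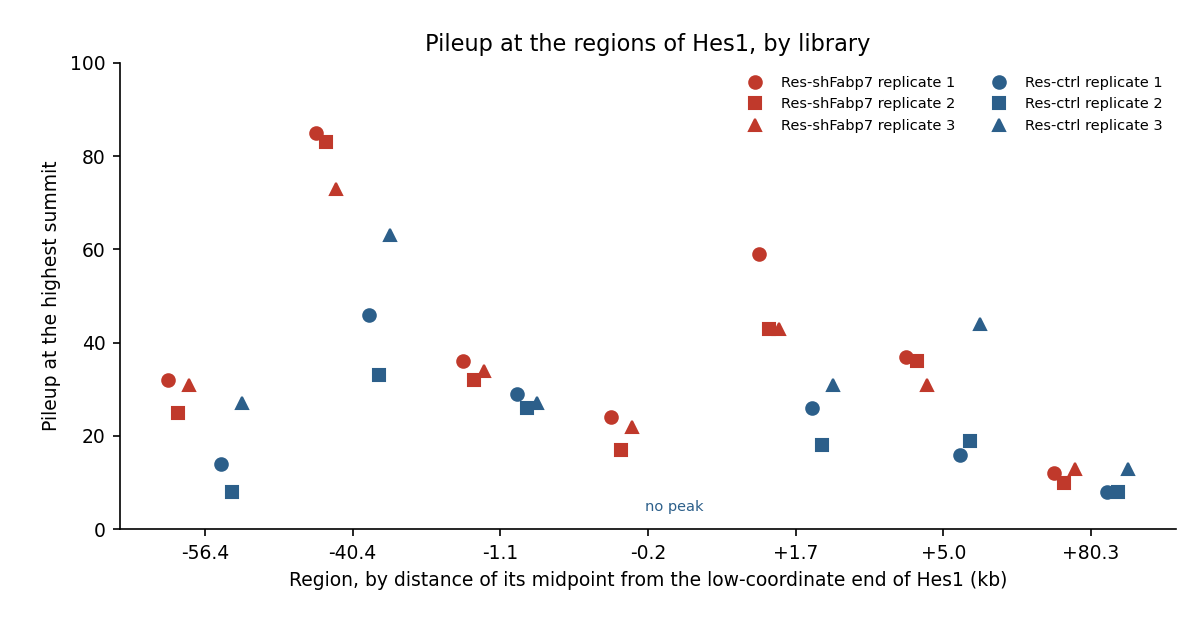
Pileup at the highest summit of each Hes1 region open in all 6 libraries or in Res-shFabp7 libraries only, by library (red, Res-shFabp7; blue, Res-ctrl; symbols, replicates), placed by the distance of the region's midpoint from the low-coordinate end of the gene in kb. At the tallest region the Res-shFabp7 libraries read 85, 83 and 73 and the Res-ctrl libraries 46, 33 and 63; at -0.2 kb no Res-ctrl library had a peak.

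Over all 8 genes, 4 of the 117 common regions passed the height test, all of them higher in Res-shFabp7: the distal region of Rbpj, the distal region of Hes1 and 2 regions inside Maml2. That is 3.42%, against 4.53% of all 56610 common regions, of which 3.13% were higher and 1.4% lower in Res-shFabp7. With median centring 5 of the 117 passed, 3 higher and 2 lower in Res-shFabp7. Without Res-ctrl replicate 3, 5 of 118 passed, 4 of them higher, where 3126 of all 57329 common regions did. Not each of these regions is given separately here. Of the 117, 24 had an unadjusted p under 0.05 (20.5%), against 19.4% of all common regions. The differences ran from -0.74 to 0.75, with a median of 0.04 against -0.01 over all common regions, and 54.7% were higher in Res-shFabp7 against 48.0% of all. The groups did not overlap at 18 regions with Res-shFabp7 higher, where 11.2% of all common regions did so, and at 7 regions with Res-shFabp7 lower, where 10.6% did. On the authors' fold over local background none of the 56610 regions passed (limma, Benjamini-Hochberg adjustment), with 16 of the 117 at an unadjusted p under 0.05. Of all called regions 69.1% were higher in Res-shFabp7 after quantile normalisation and 48.3% after median centring.

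**Figure D4:**
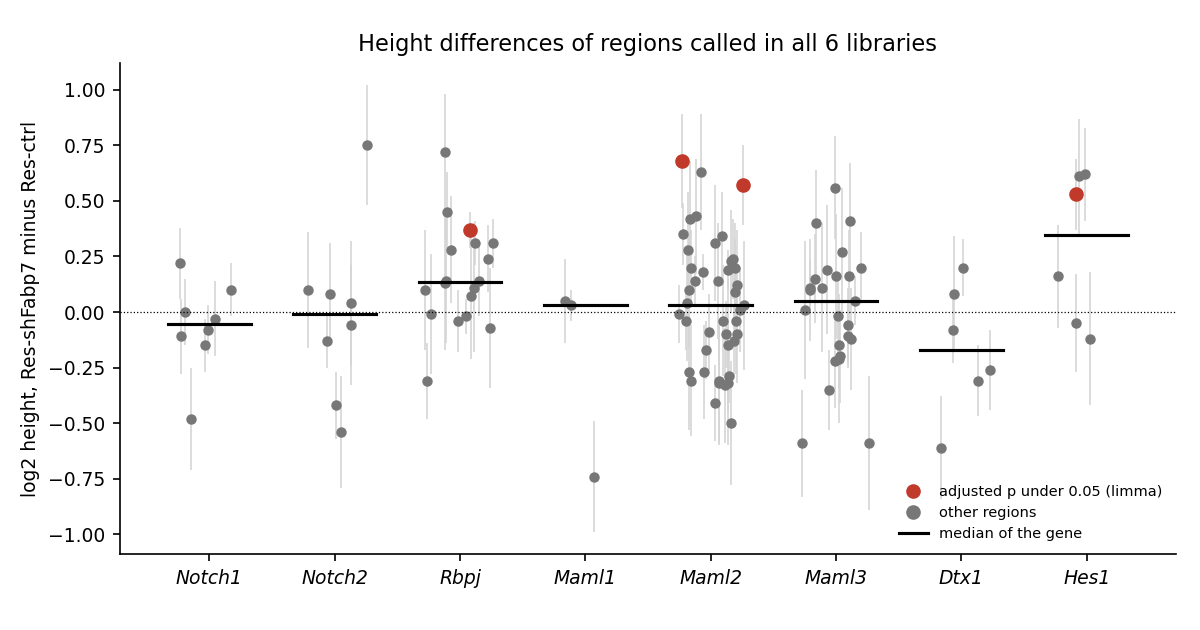
Height difference (log2, Res-shFabp7 minus Res-ctrl) of each of the 117 regions open in all 6 libraries, by gene, with its SE as a thin line and the median of the gene as a black bar. The 4 red points passed an adjusted p of 0.05 by limma: 1 at Rbpj, 2 at Maml2 and 1 at Hes1; the differences run from -0.74 to 0.75.

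A second set of regions had a peak in all 3 Res-shFabp7 libraries and in no Res-ctrl library. Among the 306 regions there were 10 of these (3.27%), against 2.28% of all regions, and they belonged to 4 genes: Maml2 held 6, Maml3 held 2, and Dtx1 and Hes1 held 1 each. The opposite pattern, a peak in all 3 Res-ctrl and in no Res-shFabp7 library, occurred at 0 of the 306, against 0.155% of all regions. No test was run on these counts, since an exact permutation test of 1 region over these libraries cannot go below p = 0.1. The highest single pileup of the 10 regions lay inside Dtx1 (chr5:120705986-120706130), 5611 bp from its start, where the pileups were 27, 17 and 17. The one at Hes1 (chr16:30065096-30065217) ended just before the low-coordinate end of the gene and had 24, 17 and 22.

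**Figure D5:**
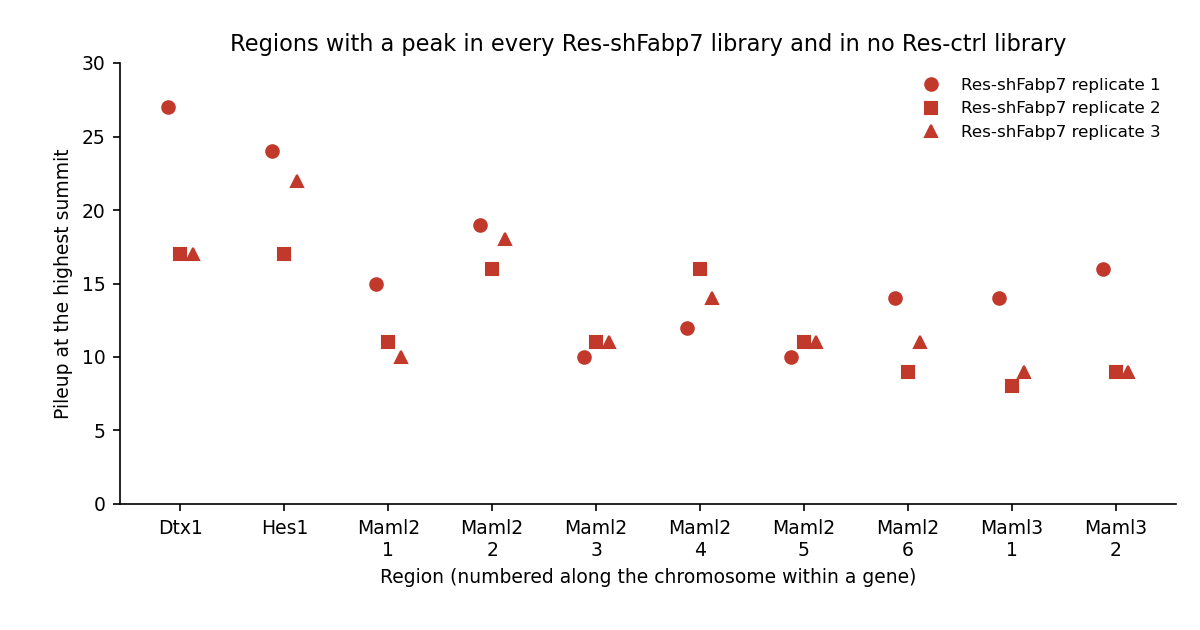
Pileup at the highest summit of the 10 regions with a peak in every Res-shFabp7 library and in no Res-ctrl library, by Res-shFabp7 replicate; regions of a gene are numbered along the chromosome. All 30 values lie between 8 and 27, and the Dtx1 and Hes1 regions are the highest.

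The 6 Maml2 regions of this kind were spread over the gene, at 13414747, 13473272, 13554419, 13555715, 13598976 and 13669911 on chromosome 9 (start positions). The highest of them, chr9:13473272-13473474, had pileups of 19, 16 and 18, and the lowest pair, chr9:13554419-13554621 and chr9:13598976-13599218, each had 10, 11 and 11. The 2 Maml3 regions, chr3:51736761-51737086 and chr3:51942246-51942408, had 14, 8 and 9 and 16, 9 and 9. When each list was shortened to the strongest peaks of equal number, 4 of the 10 kept the pattern, namely those at Dtx1 and Hes1 and the first 2 at Maml2. In those equal lists, 5 of 248 regions of the 8 genes showed it (2.02%), against 1.13% of all regions. After merging across 200 bp, 7 of 259 showed it (2.7%), against 2.48% of all regions. The regions chr9:13554419-13554621, chr9:13598976-13599218 and chr3:51942246-51942408 then lost it, each joined to a neighbouring region with a Res-ctrl peak. Set against Res-ctrl replicate 3 as the single control, a setting chosen after seeing the data, 15 regions were open in all 3 Res-shFabp7 libraries and absent from that control (5.08%, against 4.27% of all regions). In the opposite direction 18 regions were open in that control and absent from all 3 Res-shFabp7 libraries (6.1%, against 4.52%). Without Res-ctrl replicate 3 the first count was 24 (8.14%, against 5.34%).

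Of the 306 regions, 117 were open in all 6 libraries (38.2%, against 42.2% of all regions), and 75 were found in 1 library only. The share open in all 6 was lowest at Maml1, with 3 of 15, and highest at Maml2, at 41.0%. Common regions of the 8 genes had a median width of 375 bp, against 353 bp over all common regions, and their median height stood at the 40.5 percentile.

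The rest of the Notch pathway gave a background for these values. A list of 51 further genes held 597 regions, 268 of them open in all 6 libraries, and 50 of the 51 genes had at least 1 such region; Ptcra, which encodes the pre-T cell receptor alpha chain of thymocytes, had none. By height, 13 of the 268 rose and 5 fell in Res-shFabp7, where 3.13% of all common regions rose and 1.4% fell, and the median difference was -0.05. A peak in all 3 Res-shFabp7 and no Res-ctrl library was found at 11 of the 597 regions, against 2.28% of all regions, and the opposite at 1, against 0.155%. On peaks per 1000, 0 of the 26 listed genes that passed the filter on low counts were called (limma, Benjamini-Hochberg adjustment).

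The counts by role are small and stand beside those same shares of all regions. The ligands and the other receptors showed no calls of any kind, over 27 regions of 5 ligand genes and 24 regions of Notch3 and Notch4. Jag2 and Dll4 had the most regions of the ligands, 8 and 6. Among the genes of receptor cleavage and glycosylation, 1 of 53 common regions rose, at Furin, the protease that cuts Notch on its way to the surface. Furin also held 3 regions found only in Res-shFabp7 libraries, of which chr7:80412315-80412578 had pileups of 25, 27 and 38. Psen2, a catalytic subunit of gamma-secretase, held the only region found in Res-ctrl libraries alone, chr1:180268969-180269056, with pileups of 15, 16 and 21. It had 20 regions, the most of its role, followed by Adam10, the membrane protease, with 17. Of the inhibitors and turnover genes, 2 of 55 common regions rose, both at Fbxw7, whose product marks the Notch intracellular part for degradation. Numb, an inhibitor of Notch, held 2 regions found only in Res-shFabp7, with pileups of 8, 6 and 9 and of 12, 10 and 16.

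Corepressors and coactivators had 63 common regions, of which 3 rose and 3 fell. Kat2b, a histone acetyltransferase, had 35 regions and Crebbp, another, had 23, and each held 1 region found only in Res-shFabp7. Target genes had 79 common regions, of which 7 rose and 2 fell. Il2ra, the interleukin-2 receptor alpha chain, accounted for 4 of those that rose, out of 20 common regions with a median difference of 0.29. Myc had 1 that rose and 2 that fell, and 2 regions found only in Res-shFabp7, as had Gata3, a T lineage transcription factor. Tcf7, another T lineage factor, had 39 regions and no call among its 20 common regions.

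The genes whose share of peaks followed that of the 8 genes most closely across the 6 libraries, by the log2 of peaks per 1000, were Ranbp9, Myc and Cradd, with Pearson r of 0.994, 0.974 and 0.929 over 6 libraries, among 659 genes with at least 30 regions. Ranbp9 had 21, 23 and 20 peaks in Res-shFabp7 and 17, 15 and 20 in Res-ctrl. Myc had 32, 35 and 31 in Res-shFabp7 and 26, 23 and 30 in Res-ctrl, and Cradd had 33, 37 and 32 in Res-shFabp7 and 26, 23 and 35 in Res-ctrl. In each of the 3 genes Res-ctrl replicate 3 was close to the Res-shFabp7 libraries or among them. All of these values come from the same 6 lists and share their depth, so the likeness is a description.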

How the data were processed

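ATAC-seq of 6 co-culture libraries was analysed from the deposited peak lists, 1 per library, each called at q 0.05. Per the submitters' processing notes, the genome build was mm10 and the tools named are MACS2 2.2.7.1, Bowtie 1.1.2, cutadapt 2.8 and Trim Galore 0.6.5; reads were paired, 76 bases each, per the labels. Per the file headers, each list gives the pileup signal at the summit, the fold enrichment ratio over local background and −log10 of p and q, all computed by the authors before depositing. No source used here says whether reads were shifted for the transposase, and read totals are not in the lists, so depth is known only relatively.

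Peaks were assigned to RefSeq protein-coding gene bodies (GRCm38.p6) by summit, and peaks overlapping by at least 1 bp were merged into regions, each given to the gene with most of its peaks; 1 region with a peak of the 8 genes went to another gene. The relative depth of a library was read from the commonest value of (pileup + 1) / fold − 1. Region heights were log2 pileup of the highest peak, quantile-normalised over the 56610 regions with a peak in all 6 libraries. Peaks per gene were log2 of (peaks + 0.5) per 1000 peaks, for genes with a mean of at least 5 peaks. Both were tested with limma 3.58.1 (trended empirical Bayes) in R 4.3.3, with Benjamini-Hochberg adjustment over all features at 0.05. Single sums were tested with exact permutation tests (scipy 1.17.1). The limma fits were also run on simulated data, with planted changes larger than the reported height differences of the 117 common regions. That run therefore does not bear on changes of the size reported here. Regions named per gene were the tallest common one, those at a known start, those in 1 group only, those called by height and the 3 largest differences each way; pathway genes named were the 2 with most regions per role and those with a region in 1 group only, except 1 gene that is not reported here. Ptcra, Il2ra and the regions named among other observations were chosen after their values were seen, as were the Hes1 regions that were not called. Genes of like pattern were the 3 of highest Pearson r. The genes, lists and tests were chosen with earlier results of these data known. Alternatives covered stricter q, lists of equal length, gene distance, merging, cover, normalisation, the fold, pseudocount, filter, left-out libraries and a replicate block. Same-numbered libraries did not deviate together (correlations of -0.0323, 0.0281 and -0.0176), so the numbers were not treated as pairs.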

Additional observations from a re-analysis of the deposited data

How the results depend on the processing

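Depth differed between the groups, with 2 of the 3 Res-ctrl libraries shallower than any other. Of the results that answer a comparison, 72 values under alternatives were counted as the same. For sums of peaks this meant the same sign, and for counts of calls a similar size, whichever regions or genes were called. For the median height difference it meant a shift below the spread of 0.025. The 72 values include differences with the replicate number as a block, which this balanced layout leaves unchanged by construction. Of the rest, 11 counts were larger and 9 smaller, 2 medians moved by more than the spread and 1 sum changed sign. Single genes and regions were judged by direction and side of the threshold, and the counts over all features by size. Among these values, 323 stayed the same, 7 became stronger, 43 weaker and 20 changed sign. Here too the block could change only the side of the threshold or a count of calls. The median height difference of 0.044 lay between 0.028 and 0.046 under the other height scales and merges, and between 0.022 and 0.075 when a library was left out. The number of called regions of the 8 genes, 4 as reported, was 0 with the fold in place of pileup and 5 with median centring (3 higher and 2 lower in Res-shFabp7). It was 2 after merging across 200 bp and 0 to 5 when a library was left out. Over all regions the count of 2565 became 0 with the fold, 3885 with median centring and 2275 after merging. With a library left out that count was 708 to 3126. The number of genes called by peaks was 0 to 1 for the 8 genes with a library left out, the 1 being Notch2 without Res-ctrl replicate 3; over all genes the count of 37 was 0 with equal lists, inside gene bodies or with no filter, 14 at 20 kb and 1 to 103 with a library left out. Regions in Res-shFabp7 only, 10 as reported, numbered 5 with equal lists and 7 after merging across 200 bp. They numbered 28 when 2 of 3 libraries sufficed and 12 to 24 with a library left out. Regions in Res-ctrl only, 0 as reported, numbered 1 at 50% cover, 5 when 2 of 3 libraries sufficed, 18 with the single control and 0 to 3 with a library left out.

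Directions turned for small differences only, apart from the distal Rbpj region at -0.07 on the authors' fold. Peaks of the 8 genes per 1000 differed by -0.01714 against the single control, a setting added after seeing the data. The Maml1 start region was at -0.01 on the fold, -0.11 with median centring, -0.03 against the single control and -0.01 to 0.08 with a library left out. The tallest Maml3 region was at -0.01 on the fold, -0.07 with median centring and -0.05 to 0.12 with a library left out, and the Maml2 start region at -0.23 to 0.06 with a library left out. In peaks per 1000, Dtx1 was at -0.06 at q 0.001, -0.05 inside the gene body and -0.06 to 0.09 with a library left out, Maml3 at -0.09 against the single control and -0.01 to 0.08 with a library left out, and Hes1 at -0.04 against the single control and -0.07 to 0.18 with a library left out. The causes of these changes were not tested.

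Taking the replicate number as a block leaves the differences as they were, by construction in this balanced layout, and changes only the tests. For the difference in peaks of the 8 genes, 37.67, the exact sign-flip p was 0.25, the smallest 3 pairs allow. For that per 1000, 0.03542, the exact sign-flip p was 1.0. With the block, 4 regions of the 8 genes and 2793 of all regions were called by height. By peaks, 0 of the 8 genes and 118 of all genes were called, against 37 of all genes without the block.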

Other observations

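Regions held by all 3 libraries of a group and by at most 2 of the other were more common in Res-shFabp7 over all regions. The shares of all regions were 13.0% for Res-shFabp7 and 2.22% for Res-ctrl. The same direction was seen at these genes. Of their 306 regions, 46 had all 3 Res-shFabp7 libraries and 0 to 2 Res-ctrl libraries. The opposite, all 3 Res-ctrl libraries and 0 to 2 Res-shFabp7 libraries, was found at 4. Whether these genes differed from all regions in this was not tested. Every Res-ctrl list was shorter than every Res-shFabp7 list, and the part of list length was not tested either. Of the 46, 20 were at Maml2, 10 at Maml3 and 6 at Notch2. The 4 of the opposite kind were 2 at Notch1 and 2 at Maml2. At Notch1, chr2:26490381-26490502 had a pileup of 36 in Res-shFabp7 replicate 1 and no peak in the other 2, against 29, 21 and 34 in Res-ctrl. Likewise chr2:26502446-26502569 had 45 in Res-shFabp7 replicate 1 and no peak in the other 2, against 34, 24 and 38 in Res-ctrl. At both, the Res-shFabp7 library with a peak was higher than every Res-ctrl library. At Maml2, chr9:13465740-13465891 had 43 and 42 in Res-shFabp7 replicates 1 and 3 and no peak in replicate 2, against 23, 40 and 37 in Res-ctrl, and chr9:13660721-13660928 had 7 and 11 in replicates 2 and 3, against 9, 6 and 9 in Res-ctrl.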
